A study of Mus musculus with 24 samples.

Results

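The comparison described here was the genotype by housing interaction in the hippocampus of Aged mice, that is, whether environmental enrichment was followed by a different change of each transcript in wild-type (WT) mice than in mice with inactive MSK1 (MSK1 KD). It was computed for each gene as (WTEE − WTSH) − (KDEE − KDSH) on the log2 scale, so a value above 0 means that the response to enrichment was higher in WT mice and a value below 0 that it was higher in MSK1 KD mice. It used 21 of the 24 sequenced libraries, 1 per mouse, namely 4 of standard-housed WT mice (WTSH), 6 of enriched WT mice (WTEE), 5 of standard-housed MSK1 KD mice (KDSH) and 6 of enriched MSK1 KD mice (KDEE). The libraries of WTSH samples 4 and 7 and of KDSH sample 6, which the study left out, were left out here too. MSK1 KD mice carried a knock-in point mutation in the N-terminal kinase domain of the endogenous MSK1 gene, Rps6ka5, in every cell, and were bred as a homozygous line apart from the WT line, both on a C57-Bl/6J background. All mice were males without behavioural testing. Enriched mice moved at 18 months into large rat cages with a running wheel, toys and a ladder, standard-housed mice stayed in ordinary cages, and RNA was taken at 21 to 23 months from the hippocampus of each mouse. Of 49568 gene symbols, 20187 had enough counts to be tested, and the 13627 with a mean of 100 or more raw counts per library were used to describe genes and gene groups.

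MSK1 is a nuclear kinase at the end of the MAP kinase cascade. Neurotrophins such as BDNF switch on that cascade through their receptors, and MSK1 then phosphorylates the transcription factor CREB and histone H3, steps that accompany the transcription of immediate early genes in active neurons. The interaction asks whether the transcriptional response to a richer environment differs when the kinase is inactive. The WT and MSK1 KD responses were measured in separate libraries, but all libraries shared a common normalization and a common estimate of the spread. Libraries of either genotype therefore also affect the p-values of the other.

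Read pairs counted on genes ranged from 27410239 to 71907130 over the 21 libraries. Some libraries stood apart in ways that bear on the values below. The mean log2 CPM (counts scaled to library size) of the choroid plexus list, genes of the epithelium that makes cerebrospinal fluid next to the hippocampus, was over 4 in 5 libraries, of which 1 was WTSH, 2 were WTEE, 2 were KDEE and 0 were KDSH. In bulk tissue, more cells of a type and more RNA per cell cannot be told apart. WTEE sample 10 had the highest Malat1 and the lowest Rps6ka5 of all. Read pairs outside annotated genes were 9.52% to 15.7% of all pairs in WTSH, 10.2% to 13.5% in WTEE, 9.81% to 12.3% in KDSH and 8.41% to 10.9% in KDEE. In the left-out libraries this share was 32.2% and 33.0% in WTSH samples 4 and 7 and 16.4% in KDSH sample 6. The hippocampal markers Prox1 (dentate granule cells) and Neurod6 (pyramidal cells) had 2106 to 5291 and 5842 to 8386 normalized counts over all 21 libraries. As the mutation of Rps6ka5 is a point mutation, the counts of this gene do not check the genotype labels. The study looked for the mutation in the aligned reads and reported it in the MSK1 KD samples. As the lines were bred apart, the mutation and any other difference between the lines cannot be told apart.

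No gene passed the study's thresholds for the interaction in edgeR. By edgeR's quasi-likelihood test with Benjamini-Hochberg adjustment over the 20187 tested genes, 0 genes (0%) had an adjusted p under 0.05 with an absolute log2 difference over 0.38, and the smallest adjusted p was 0.419. At an unadjusted p under 0.05, 174 of the 13627 genes (1.28%) differed between the genotypes in their response. A threshold of 0.05 lets through 5% of tests on average where nothing differs, so this share was below that mark. Of the 174 genes, 56 (0.411% of the 13627) had an interaction above 0 and 118 (0.866%) had one below 0. DESeq2's Wald test, which the study used for its own comparisons, gave 20 calls for the interaction at the same thresholds, each above 0. Of the 20, 19 were predicted genes with Gm symbols or Rik clones, and only Gh and Gm10800 had a mean of 100 or more. The precision was limited: the standard error of the interaction had a median of 0.14 on the log2 scale, and in simulated counts of this design 41 of 200 genes given a log2 interaction of 0.5 were called, against 176 of 200 given a log2 interaction of 1.

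The responses of both genotypes ran in the same direction for most genes. Enrichment was followed by an unadjusted p under 0.05 in WT mice for 767 genes (5.63%), of which 386 (2.83%) were higher and 381 (2.80%) lower, and in MSK1 KD mice for 1650 genes (12.1%), of which 834 (6.12%) were higher and 816 (5.99%) lower. These counts moved with single libraries, to 321 without WTSH sample 5 and 1717 without WTEE sample 21 in WT, and to 945 without KDEE sample 12 and 3555 without WTEE sample 10 in MSK1 KD. Across the 13627 genes, which are not independent, the WT and MSK1 KD responses had a Pearson r of 0.41 and a Spearman correlation of 0.67, and 10314 genes (75.7%) had the same sign in both. Among the 198 genes with p under 0.05 in both genotypes, 195 had the same sign. Of the 174 interaction genes, which were picked for a difference between the responses, 146 had responses of opposite sign, 33 had p under 0.05 in WT, 104 in MSK1 KD, 3 in both and 40 in neither. The immunoglobulin heavy chain gene Ighm belonged to the shared response, with a log2 change of 0.68 ± 0.12 (SE) in WT mice, 0.48 ± 0.11 in MSK1 KD mice and an interaction of 0.19 ± 0.16.

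**Figure D1:**
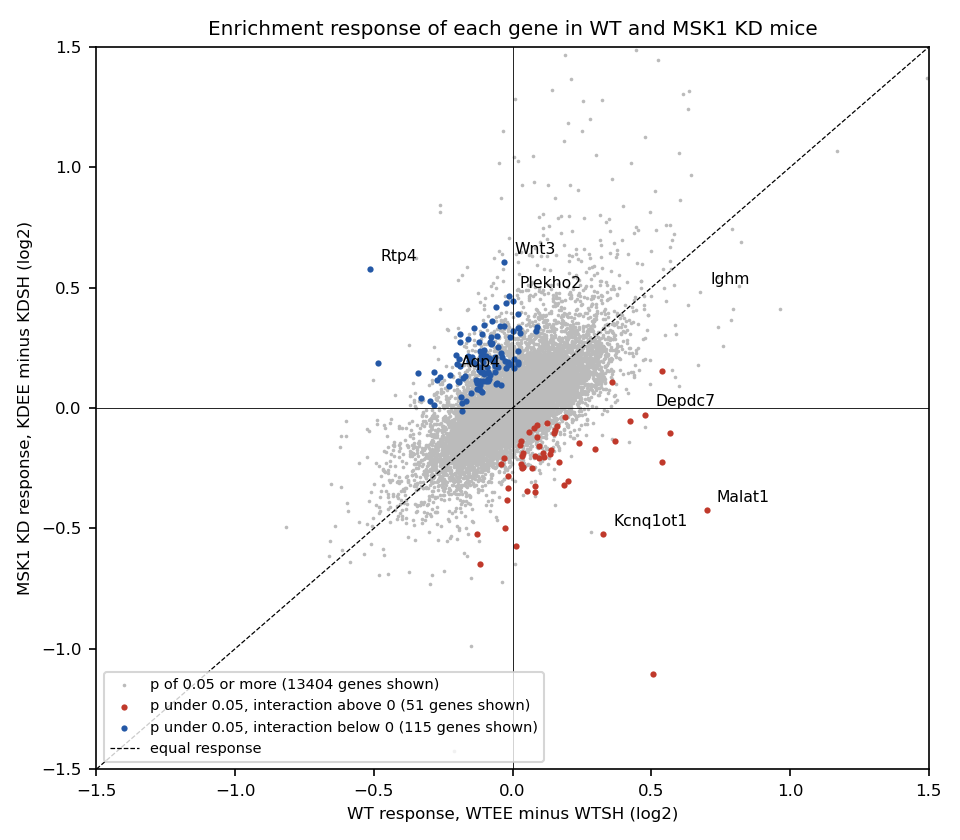
Log2 response to enrichment of each gene with a mean of 100 or more raw counts in WT mice (horizontal axis, WTEE minus WTSH) and MSK1 KD mice (vertical axis, KDEE minus KDSH). Each point is a gene, red and blue points have an unadjusted interaction p under 0.05, the dashed line marks equal responses, and 57 genes lie outside the axes of ±1.5. Most genes follow the dashed line, with Malat1 and Kcnq1ot1 to its lower right and Rtp4 and Wnt3 to its upper left.

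No gene of the pathway around MSK1 had an interaction p under 0.05. Rps6ka5 had 1016, 1049, 1198 and 1212 normalized counts in the WTSH libraries and 1166, 1136, 1139, 1190 and 1157 in KDSH, against a lowest, median and highest value of 665, 1100 and 1196 in WTEE and 1106, 1133 and 1173 in KDEE. The groups overlapped in both genotypes, and the 665 of WTEE sample 10 stood below every other library. The interaction of Rps6ka5 was −0.08 ± 0.14 (SE, unadjusted p = 0.59), and without that library it was 0.02. Exact two-sided permutation tests of the normalized counts of Rps6ka5 between housing groups gave p = 0.614 in WT (n = 4 and 6) and p = 0.253 in MSK1 KD (n = 5 and 6), 2 of 20 such single-gene tests run. After Benjamini-Hochberg adjustment over the 20 permutation tests, only Batf3 in WT (adjusted p = 0.048) and Ighm in MSK1 KD (adjusted p = 0.043) were under 0.05. Egr1 and Kcnq1ot1 in MSK1 KD each had an adjusted permutation p of 0.052.

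Of the 27 genes of the MSK, RSK and MAP kinase list, 0 had an interaction p under 0.05, and the median interaction was 0.02 beside −0.002 over all 13627 genes. Mapk14, the p38 alpha kinase that also activates MSK1, was lower by 0.16 ± 0.04 (log2, SE) in enriched MSK1 KD mice with no overlap of the groups, and by 0.08 ± 0.05 in enriched WT mice, so its interaction was 0.08 ± 0.06 (unadjusted p = 0.20). The 16 neurotrophin genes with enough counts also had 0 with p under 0.05, and 13 of them had an interaction below 0, with a median of −0.08. Without WTEE sample 10, 8 of the 16 were above 0 and the median was 0.007. Ntrk2, the receptor of BDNF, had an interaction of −0.19 ± 0.13 (unadjusted p = 0.15). Bdnf itself had WTSH values of 1737, 1689, 1617 and 1817, KDSH values of 1505, 1535, 1619, 1535 and 1576, and medians of 1744 in WTEE and 1632 in KDEE. Its groups overlapped in both genotypes, and its interaction was 0.02 ± 0.11 (unadjusted p = 0.85). The CREB list, made of CREB factors and coactivators, had 0 of 15 genes with p under 0.05 and a median of −0.003. Creb1, the main substrate of MSK1 in the list, was lower by 0.14 ± 0.06 in WT and by 0.10 ± 0.06 in MSK1 KD.

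Immediate early genes leaned to one side without passing the test. Of 35 genes, 26 had an interaction above 0, with a median response of 0.03 in WT mice and −0.13 in MSK1 KD mice, but 0 had an interaction p under 0.05. Egr1, a zinc finger factor switched on by activity, had 11391, 5958, 6534 and 8804 normalized counts in WTSH, 8472, 10589, 9491, 8034 and 10082 in KDSH, and a lowest, median and highest value of 6268, 7365 and 11104 in WTEE and of 6725, 7554 and 8456 in KDEE. The WT groups covered much the same range, while 4 of the 5 KDSH libraries lay above every KDEE library. The exact two-sided permutation p for Egr1 was 0.013 in MSK1 KD (n = 5 and 6) and 0.876 in WT (n = 4 and 6), before any adjustment, and the interaction was 0.26 ± 0.21 (edgeR unadjusted p = 0.24). At p under 0.05, 5 of the 35 genes were lower in enriched MSK1 KD mice (5.99% of all genes were) and 0 were higher. In enriched WT mice 2 were lower (2.80% of all genes were) and 1 was higher. Dusp5, with the smallest interaction p of the list, had an interaction of 0.34 ± 0.21 (edgeR unadjusted p = 0.12). Arc, which the study names, had 0.31 ± 0.32 (edgeR unadjusted p = 0.34), from 0.16 ± 0.23 in WT and −0.15 ± 0.22 in MSK1 KD. Rgs2 was higher in both genotypes, by 0.24 ± 0.10 in WT and 0.09 ± 0.09 in MSK1 KD. Picked after their values were seen, Fosb, a Fos family factor, was lower by 0.43 and Inhba, an activin subunit, by 0.69 in enriched MSK1 KD mice at p under 0.05. Homer1, a postsynaptic scaffold gene, was lower in both genotypes, by 0.43 in WT and 0.36 in MSK1 KD. Without WTSH sample 5 the number above 0 was 20 of 35, and without WTSH sample 2 it was 30 of 35.

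Across the 52 gene lists, 36 had 0 members with an interaction p under 0.05. These included the lists of glutamate receptors, the postsynaptic scaffold, vesicle release, sodium and calcium channels, hippocampal subfield markers, newborn neurons and chromatin enzymes. The highest shares, among lists with at least 5 members at a mean of 100 or more, were 5 of 27 for astrocyte genes, 3 of 23 for choroid plexus, 2 of 19 for nuclear long noncoding RNAs, 3 of 36 for the Wnt pathway, 2 of 25 for disease-associated microglia, 2 of 26 for interferon-stimulated genes, 2 of 29 for the insulin and IGF pathway, and 1 of 19 each for GABA receptors and synthesis and for oligodendrocyte precursors. The background share was 1.28%, and lists of this size hold few such genes, so 1 or 2 members carry little weight. With each library left out in turn, the number ran from 0 to 2 for the microglia, insulin and precursor lists and from 0 to 3 for the GABA list.

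**Figure D2:**
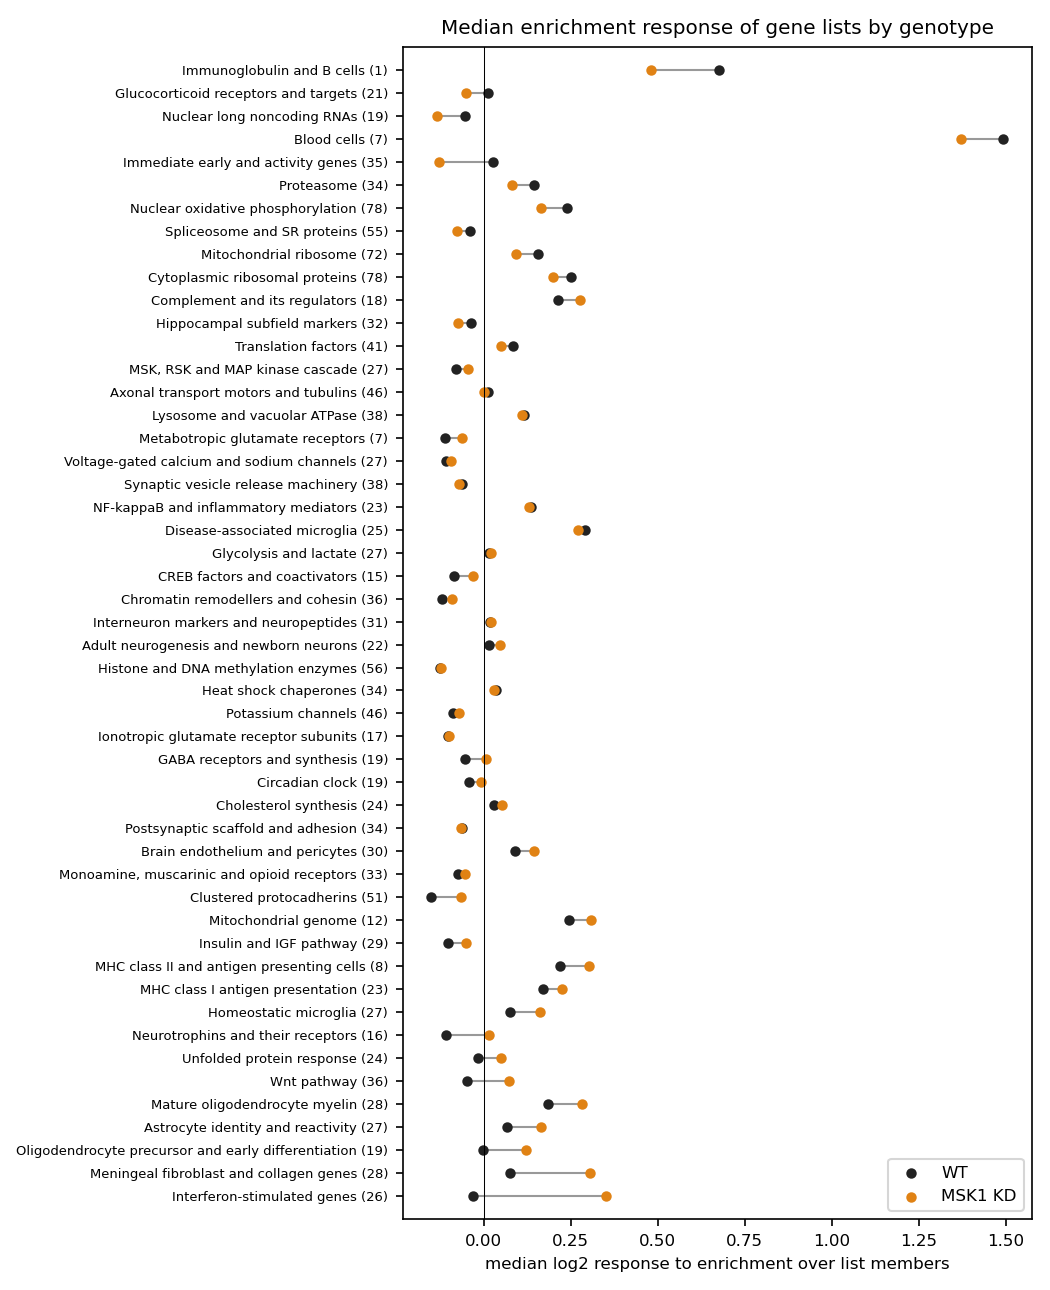
Median log2 response to enrichment over the members of each gene list in WT (black) and MSK1 KD mice (orange), with the number of members in parentheses and lists ordered by their median interaction. The pituitary and choroid plexus lists, with medians far outside the axis, are not drawn. Synaptic and channel lists have both points close together, and the interferon-stimulated, meningeal and astrocyte lists have the orange point to the right.

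Astrocyte genes held the largest share of interaction genes, and 4 of the 5 had a response that was lower in WT than in MSK1 KD mice. Of 27 genes, 23 had an interaction below 0 and the median was −0.15, with median responses of 0.07 in WT and 0.17 in MSK1 KD. Aqp4, the water channel of astrocyte endfeet (chromosome 18, 15389496 to 15410982, GRCm38), had 5937, 6957, 8078 and 7207 normalized counts in WTSH and 6276, 6687, 6762, 6775 and 6242 in KDSH. Its lowest, median and highest values were 4799, 6312 and 6711 in WTEE and 6404, 7158 and 8032 in KDEE. WTEE libraries tended to the low side of the WTSH range and KDEE libraries to the high side of the KDSH range, with overlap in both genotypes. The log2 response of Aqp4 was −0.22 ± 0.09 (SE) in WT and 0.14 ± 0.08 in MSK1 KD, an interaction of −0.36 ± 0.12 (unadjusted p = 0.0066, edgeR adjusted p = 0.73).

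Gja1, which encodes the astrocyte gap junction protein connexin 43, had 9436, 11477, 10167 and 8697 normalized counts in WTSH and a median of 8975 in WTEE, against 9304, 9796, 10132, 9945 and 8640 in KDSH and a median of 10290 in KDEE. Its interaction was −0.24 ± 0.09 (unadjusted p = 0.019), but −0.17 without WTSH sample 5, the library with the highest value. Fgfr3, a fibroblast growth factor receptor of astrocytes, had an interaction of −0.21 ± 0.09 (unadjusted p = 0.039), from −0.02 ± 0.07 in WT and 0.19 ± 0.07 in MSK1 KD. Gpc5, a cell-surface heparan sulphate proteoglycan, had an interaction of −0.21 ± 0.09 (unadjusted p = 0.030). The fifth gene went the other way. Lcn2, an acute-phase protein of reactive astrocytes, had 22.3, 17.9, 48.8 and 22 normalized counts in WTSH and 29.9, 38.4, 169, 151 and 9.39 in KDSH, with medians of 157 in WTEE and 74.5 in KDEE and an interaction of 2.35 ± 1.05 (unadjusted p = 0.036). Gfap, the intermediate filament of reactive astrocytes, was higher in both genotypes, by 0.27 ± 0.12 in WT and 0.29 ± 0.11 in MSK1 KD, with an interaction of −0.03 ± 0.16. With all 24 libraries the median interaction of the list was −0.02 and 13 of 27 genes were above 0. With the share of pairs outside genes as a covariate, the median was −0.07, 10 of the 27 were above 0 and 2 had p under 0.05, and with each library left out in turn the number ran from 1 (without WTSH sample 5) to 6 (without WTSH sample 23).

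Several other glial genes had interactions of the same sign, but not glia in general: 12 of 27 genes of the homeostatic microglia list were above 0. Among the 118 genes below 0, Ednrb, the endothelin B receptor, had an interaction of −0.32 ± 0.11 (unadjusted p = 0.0070), and Tril, a co-receptor of Toll-like receptors, one of −0.27 ± 0.09 (unadjusted p = 0.0053). Slc6a11, the GABA transporter GAT-3 of astrocytes and the single member of the GABA list with p under 0.05, had −0.23 ± 0.10 (unadjusted p = 0.025). Pdgfra, the growth factor receptor that defines oligodendrocyte precursors, had −0.24 ± 0.10 (unadjusted p = 0.024). In the precursor list 16 of 19 genes were below 0, with a median of −0.17. In the list of mature myelin genes 24 of 28 were below 0, with a median interaction of −0.12, and 1 had an interaction p under 0.05. Of the 28, 19 were higher in enriched MSK1 KD mice at p under 0.05 (6.12% of all genes were) and 3 in enriched WT mice (2.83% of all genes), with median responses of 0.28 and 0.18. Without WTSH sample 19, a choroid-rich library, 15 of the 28 myelin genes were above 0 in place of 4. With all 24 libraries 13 were above 0 and the myelin median was −0.005. With the choroid plexus level as a covariate 10 were above 0 and it was −0.04. The precursor list kept a median of −0.17 with all 24 libraries.

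In the Wnt pathway 3 of 36 genes, the ligands Wnt3 and Wnt5a and the receptor Fzd6, had an interaction p under 0.05, all below 0. Wnt3, a secreted ligand expressed in the hippocampus (chromosome 11, 103774150 to 103817957), had 108, 95.3, 133 and 93.1 normalized counts in WTSH and 77.0, 90.7, 91.9, 86.6 and 85.7 in KDSH. Its lowest, median and highest values were 90.2, 103 and 127 in WTEE and 100, 131 and 162 in KDEE. The WT groups covered the same range, and every KDEE library was above every KDSH library. The response of Wnt3 was −0.03 ± 0.14 in WT and 0.61 ± 0.13 in MSK1 KD, an interaction of −0.64 ± 0.19 (unadjusted p = 0.0031, edgeR adjusted p = 0.54), and it stayed between −0.71 and −0.52 with each library left out in turn. Fzd6, a Frizzled receptor, had an interaction of −0.46 ± 0.19 (unadjusted p = 0.027) and Wnt5a, a ligand of the noncanonical branch, one of −0.28 ± 0.13 (unadjusted p = 0.037). Ctnnb1, which encodes beta-catenin, had −0.10 ± 0.06 (unadjusted p = 0.11), and the ligand Wnt2 was on the other side of 0, at 0.32 ± 0.19 (unadjusted p = 0.12). Of the 36 genes in the list 28 were below 0, with a median of −0.10. Over the leave-outs 2 to 4 genes had p under 0.05, and with the share of pairs outside genes as a covariate it was 1.

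The gene with the smallest p below 0 was Scd3, a stearoyl-CoA desaturase that makes monounsaturated fatty acids. It had 222, 216, 269 and 209 normalized counts in WTSH and 203, 173, 183, 201 and 169 in KDSH, with a lowest, median and highest value of 172, 203 and 226 in WTEE and of 221, 226 and 245 in KDEE. The MSK1 KD groups did not overlap and the WT groups did. Its interaction was −0.50 ± 0.14 (unadjusted p = 0.0014, edgeR adjusted p = 0.44). Plekho2, a pleckstrin homology domain protein, had 935, 694, 1087 and 878 in WTSH and 785, 892, 645, 661 and 775 in KDSH, with 793, 881 and 1004 as the lowest, median and highest in WTEE and 957, 1032 and 1135 in KDEE. Its MSK1 KD groups did not overlap either, and its interaction was −0.48 ± 0.14 (unadjusted p = 0.0032). Arhgef19, a guanine nucleotide exchange factor, had −0.42 ± 0.11 (unadjusted p = 0.0015), and Apln, the peptide ligand apelin, −0.45 ± 0.14 (unadjusted p = 0.0038). Also among the first 12 below 0 were Lrig1, an inhibitor of growth factor receptors, at −0.26 ± 0.09, and Tpmt, a methyltransferase, at −0.46 ± 0.16. WTSH sample 19 had the highest WTSH value of Wnt3, Scd3, Plekho2, Apln and Aqp4, and without it their interactions were −0.52, −0.41, −0.38, −0.33 and −0.29.

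**Figure D3:**
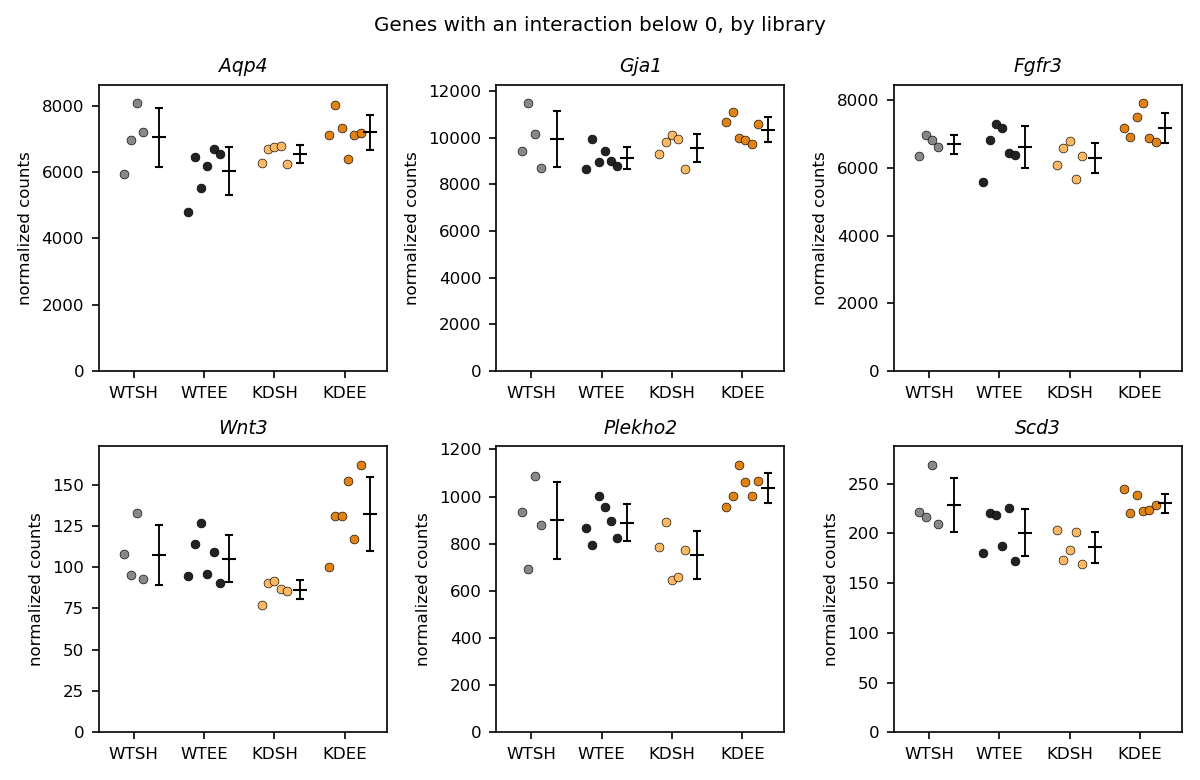
Normalized counts of Aqp4, Gja1, Fgfr3, Wnt3, Plekho2 and Scd3 in each library by group, with the mean and SD of the group beside the points. The vertical axes start at 0. Every KDEE library lies above every KDSH library for Wnt3, Plekho2 and Scd3, and the WT groups overlap in all 6 genes. Wnt3, Plekho2 and Scd3 were picked for a small interaction p in these same libraries, and 12.1% of all genes had p under 0.05 for the MSK1 KD response.

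Interferon-stimulated genes, which cells switch on in response to interferons, had a median response of −0.03 in WT and 0.35 in MSK1 KD mice, and 23 of 26 had an interaction below 0. Enrichment gave p under 0.05 for 0 of the 26 in WT mice and for 9 in MSK1 KD mice, all higher (6.12% of all genes were), but the difference between the responses had p under 0.05 for only Rtp4 and Ifit2. Rtp4, an interferon-induced chaperone of receptors, had 127, 100, 164 and 131 normalized counts in WTSH and 81.6, 96.5, 159, 85.7 and 64.6 in KDSH, with a lowest, median and highest value of 63.6, 76.3 and 159 in WTEE and of 119, 130 and 216 in KDEE. In WTEE the highest value, that of sample 10, was well above the rest, and in KDSH that of sample 8 was. The interaction of Rtp4 was −1.09 ± 0.35 (unadjusted p = 0.0054, edgeR adjusted p = 0.65) and that of Ifit2, which blocks translation of foreign RNA, was −0.31 ± 0.13 (unadjusted p = 0.033). Trim30a and Oasl2, also induced by interferons, had −0.56 ± 0.28 and −0.74 ± 0.37 (unadjusted p = 0.056 and 0.062). The number with p under 0.05 was 8 without WTEE sample 10 and 0 with all 24 libraries, where the median was −0.13. In WTSH, WTEE and KDEE the choroid-rich libraries had the highest mean log2 CPM of this list, 3.02 in WTSH sample 19, 2.82 and 3.23 in WTEE samples 13 and 10, and 3.22 and 3.30 in KDEE samples 12 and 14. KDEE sample 22 and KDSH sample 8, which were not choroid-rich, had 3.20 and 3.04. With the choroid plexus level as a covariate the median interaction was −0.21, and the part of choroid plexus tissue in this result was not tested.

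Of 25 disease-associated microglia genes, 7 were higher in enriched WT mice at p under 0.05 (2.83% of all genes were). In enriched MSK1 KD mice 9 were higher (6.12% of all genes were), and the median responses were 0.29 in WT and 0.27 in MSK1 KD. The median interaction was 0.001, and without WTEE sample 10 it was −0.16, with 5 of 25 genes above 0. Axl, a receptor kinase for dying cells, had an interaction of −0.17 ± 0.08 (unadjusted p = 0.050), with no overlap between KDSH and KDEE. Igf1, insulin-like growth factor 1, had −0.31 ± 0.15 (unadjusted p = 0.049) and also belongs to the insulin and IGF list, in which Pik3r1, the regulatory subunit of PI3-kinase, had −0.21 ± 0.10 (unadjusted p = 0.045). The median interaction of the insulin and IGF list was −0.06. Of 7 blood cell genes, 6 were higher at p under 0.05 in each genotype (2.83% of all genes in WT and 6.12% in MSK1 KD). Their median responses were 1.49 in WT and 1.37 in MSK1 KD, and 0 of 7 had an interaction p under 0.05. Batf3, an AP-1 family factor with a mean below 100 counts, had an interaction of 0.72 ± 0.24 (unadjusted p = 0.0069, edgeR adjusted p = 0.73). It had 55.2, 31.8, 37.1 and 48.1 normalized counts in WTSH and a median of 74.4 in WTEE, without overlap, against medians of 41.9 in KDSH and 49.7 in KDEE, which overlapped.

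Nuclear long noncoding RNAs, transcripts that stay in the nucleus, included 2 of the 56 genes above 0, Malat1 and Kcnq1ot1, and had 16 of 19 genes above 0 and a median of 0.11. Malat1, a nuclear speckle RNA (chromosome 19, 5795690 to 5802672), had 50334, 26002, 38611 and 50853 normalized counts in WTSH and 53503, 42527, 41651, 36775 and 50636 in KDSH. Its lowest, median and highest values were 41109, 54672 and 137730 in WTEE and 28416, 33083 and 38967 in KDEE. WTEE sample 10 was far above the other libraries, and in MSK1 KD mice only the highest KDEE values reached the KDSH range. The response of Malat1 was 0.70 ± 0.26 in WT and −0.42 ± 0.24 in MSK1 KD, an interaction of 1.12 ± 0.36 (unadjusted p = 0.0048, edgeR adjusted p = 0.60). It was 0.78 without WTEE sample 10 and 0.40 with all 24 libraries.

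Kcnq1ot1, an imprinted RNA that silences its neighbours (chromosome 7, 143203458 to 143296549), had 1022, 908, 912 and 1039 normalized counts in WTSH and 1114, 1026, 870, 1138 and 1112 in KDSH, with a lowest, median and highest value of 767, 1156 and 1972 in WTEE and of 531, 704 and 1044 in KDEE. Its exons overlap those of Kcnq1 on the opposite strand, and the counting did not separate strands. The interaction was 0.85 ± 0.29 (unadjusted p = 0.0072, edgeR adjusted p = 0.73), and it was −0.22 with all 24 libraries when the left-out WTSH samples 4 and 7, with 3989 and 3966 normalized counts, were included. The exact two-sided permutation p for Kcnq1ot1 was 0.352 in WT (n = 4 and 6) and 0.013 in MSK1 KD (n = 5 and 6), unadjusted. Meg3, an imprinted neuronal RNA, was lower by 0.40 in enriched MSK1 KD mice at p under 0.05, but its values in WTEE were low too, with a median of 153430 against 178330 in WTSH. In all, 7 of the 19 RNAs were lower in enriched MSK1 KD mice at p under 0.05 (5.99% of all genes were) and 1, Malat1, was higher in enriched WT mice. The share of read pairs outside genes was also lowest in KDEE. With that share as a covariate, 2 of 19 RNAs had an interaction p under 0.05, 14 were above 0 and the median was 0.08. With all 24 libraries, 0 of 19 had an interaction p under 0.05, 13 were above 0 and the median was 0.09. The part of this share in the result was not tested.

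Other genes above 0 were predicted genes with a wide spread and protein-coding genes with smaller interactions. Gm10800, a predicted gene (chromosome 2, 98666547 to 98667301), had 709, 261, 93.2 and 3 normalized counts in WTSH, 5344, 933, 14.6, 885 and 16.4 in KDSH, 454 to 6929 in WTEE and 3.08 to 200 in KDEE. It was listed for this report among possible signs of RNA quality, and the part of RNA quality in its values was not tested. Its interaction was 7.67 ± 1.78 (unadjusted p = 0.00031, edgeR adjusted p = 0.42), and values within each group spanned more than 10-fold. Gm21738, another predicted gene, had 7.16 ± 1.72 (unadjusted p = 0.00043). Rtl1, an imprinted retrotransposon-derived gene, had 0.40 ± 0.14 (unadjusted p = 0.0096), and Kctd9, an adaptor of ubiquitin ligases, had 0.28 ± 0.09 (unadjusted p = 0.0068). Depdc7, a DEP domain protein, had 0.50 ± 0.17 (unadjusted p = 0.0084) from a response of 0.48 ± 0.13 in WT and −0.03 ± 0.12 in MSK1 KD, and its WT groups did not overlap.

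The pituitary hormone genes Gh and Pomc also had interactions above 0, of 11.36 ± 2.70 and 5.32 ± 1.51 (unadjusted p = 0.00040 and 0.0021). Gh, growth hormone, had 6158 normalized counts in KDSH sample 8 and 0 to 307 in the other KDSH libraries, and Pomc, the precursor of adrenocorticotropic hormone, had 4600 in the same library and 40.0 to 60.9 in the others. Without KDSH sample 8 the interaction of Gh was 7.34 and that of Pomc was 1.14. In WTEE, Gh ran from 1.71 to 556. Prl, the pituitary hormone prolactin, had 829 counts in KDSH sample 8 and 697 in WTEE sample 21, where Gh was 498 and Pomc 82.5. The 3 hormone genes were thus all at their highest in KDSH sample 8, while in WTEE the highest Gh, Pomc and Prl stood in samples 11, 13 and 21. The part of pituitary tissue in these values was not tested.

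The choroid plexus list had a median interaction of −2.79, the farthest from 0 of the lists below 0, with 23 of 23 genes below 0 and 3 of them, F5, Tmem72 and Ttr, with p under 0.05. Ttr, the thyroid hormone carrier transthyretin, had 394, 3564, 197430 and 1237 normalized counts in WTSH and 3583, 233, 315, 1029 and 1551 in KDSH. In WTEE 2 libraries had 245480 and 265580 and the others 1026 to 2562, and in KDEE 2 libraries had 434670 and 119760 and the others 3026 to 4207. The high values thus stood in 1 or 2 libraries of every group but KDSH. The median response of the list was 0.51 in WT and 3.34 in MSK1 KD. Without WTSH sample 19 the interaction of Ttr was −0.52 in place of −5.37 and the median of the list was −0.43. The number with p under 0.05 was 0 without KDEE sample 12 and 15 without WTEE sample 13. With the choroid plexus level as a covariate, 164 genes had an interaction p under 0.05, among them 5 astrocyte and 3 Wnt genes. The median interaction with this covariate was −0.09 for the astrocyte list, with 8 of 27 genes above 0, and −0.06 for the Wnt list.

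**Figure D4:**
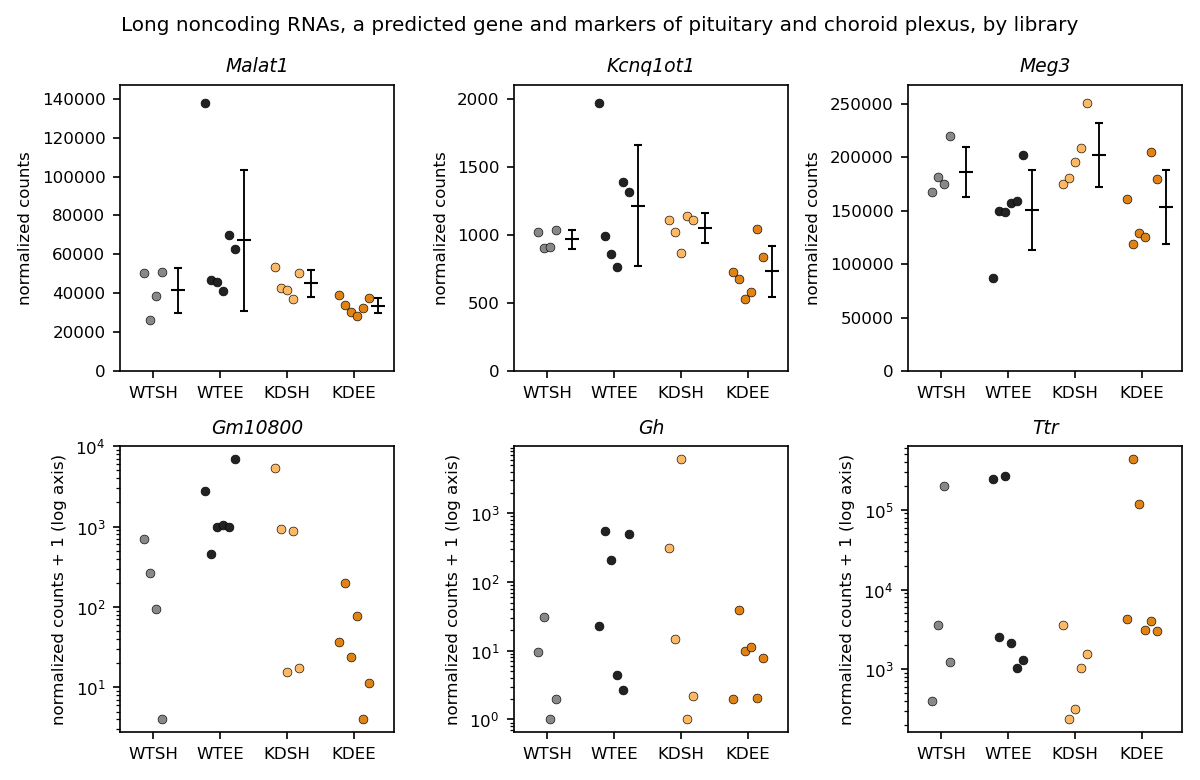
Normalized counts of Malat1, Kcnq1ot1 and Meg3 (axes from 0, mean and SD beside the points) and of Gm10800, Gh and Ttr (normalized counts plus 1 on log axes) in each library by group. WTEE sample 10 is the highest Malat1 and the lowest Meg3 value, and Ttr is at 119760 or above in 5 libraries, none of them KDSH.

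Genes of the protein and energy machinery had small interactions of 1 sign that turned when 1 library was left out. Of 78 nuclear genes of oxidative phosphorylation, 69 had an interaction above 0, with a median of 0.07 and 0 with p under 0.05. Of 78 cytoplasmic ribosomal protein genes 66 were above 0, as were 32 of 34 proteasome and 56 of 72 mitochondrial ribosome genes, against 49.2% of all 13627 genes. Without WTEE sample 10 these numbers were 2 of 78, 1 of 78, 6 of 34 and 11 of 72. Spliceosome genes kept more of the pattern, with 48 of 55 above 0 and 35 of 55 without that library, and 0 of the 55 had an interaction p under 0.05, while 15 were lower in enriched MSK1 KD mice at p under 0.05 (5.99% of all genes were). The 12 genes of the mitochondrial genome were all below 0 with a median of −0.06, and 6 of them were above 0 without WTSH sample 5.

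As MSK1 acts on CREB, the promoters of the interaction genes were searched for the CREB site TGACGTCA, the cyclic AMP response element, and for its core TGACG on either strand, which the full site holds once on each strand. The 300 bases from 250 before to 50 after the transcription start were taken from RefSeq (GRCm38.p6), where 10286 of the 13627 genes had an entry. The full site was in 371 of the 10286 (3.61%), in 0 of 37 genes above 0 and in 5 of 92 below 0 (5.43%), namely Elovl5, Golph3, Gosr2, Kctd8 and Msi2. The core was in 35.1% of all, in 13 of 37 genes above 0 (35.1%) and in 23 of 92 below 0 (25.0%). These shares are descriptions and were not tested. The promoters below show a gene with the full site, Kctd8, one with several cores, Malat1, and one with neither, Wnt3, with the matched letters in capitals.
Kctd8, chr5:69341660-69341959, minus strand: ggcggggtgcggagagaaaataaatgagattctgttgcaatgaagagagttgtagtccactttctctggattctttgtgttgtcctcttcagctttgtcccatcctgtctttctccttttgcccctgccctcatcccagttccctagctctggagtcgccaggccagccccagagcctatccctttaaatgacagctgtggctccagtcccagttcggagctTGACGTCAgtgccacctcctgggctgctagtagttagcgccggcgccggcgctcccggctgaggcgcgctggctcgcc
Malat1, chr19:5802623-5802922, minus strand: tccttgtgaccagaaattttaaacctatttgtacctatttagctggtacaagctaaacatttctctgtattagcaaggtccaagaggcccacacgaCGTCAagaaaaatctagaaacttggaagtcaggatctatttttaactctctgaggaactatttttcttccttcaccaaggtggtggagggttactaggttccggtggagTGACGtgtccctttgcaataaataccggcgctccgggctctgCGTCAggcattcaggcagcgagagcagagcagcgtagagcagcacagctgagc
Wnt3, chr11:103773925-103774224, plus strand: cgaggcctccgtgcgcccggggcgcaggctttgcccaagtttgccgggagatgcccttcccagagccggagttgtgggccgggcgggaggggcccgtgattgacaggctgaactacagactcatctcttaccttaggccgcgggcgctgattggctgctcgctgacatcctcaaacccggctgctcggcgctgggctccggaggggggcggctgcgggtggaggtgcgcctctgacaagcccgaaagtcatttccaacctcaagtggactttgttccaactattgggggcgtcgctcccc

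Kctd8, an auxiliary subunit of the GABA-B receptor, was chosen after its values were seen. It had 322, 357, 323 and 375 normalized counts in WTSH and 269, 319, 296, 335 and 296 in KDSH, with medians of 328 in WTEE and 375 in KDEE. The groups overlapped in both genotypes, and the interaction was −0.38 ± 0.14 (unadjusted p = 0.011).

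The number of interaction genes depended on single mice. With each library left out in turn, the 174 genes became 87 without WTSH sample 19, 293 without KDSH sample 18, 320 without WTEE sample 13 and 364 without WTEE sample 10, and the number called with adjustment was 0 each time. With all 24 libraries the number was 352, of which 157 were above 0.

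**Figure D5:**
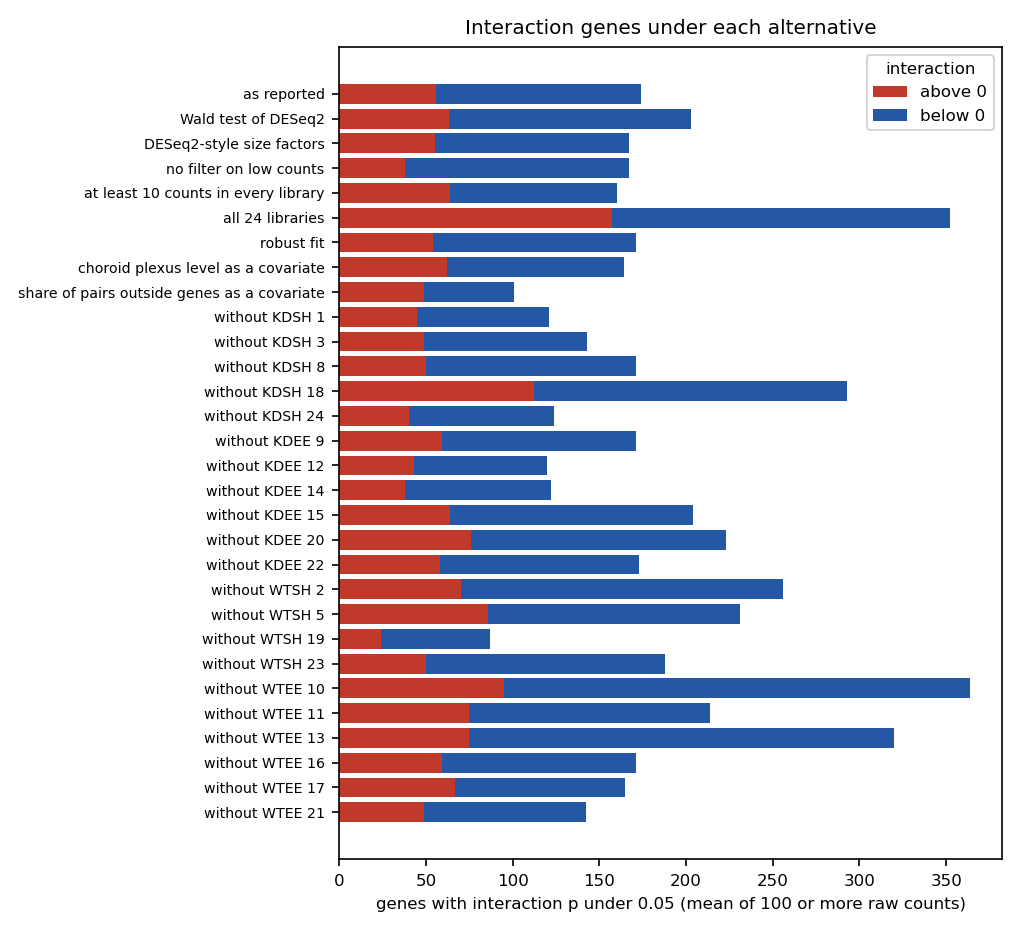
Number of genes with an unadjusted interaction p under 0.05 and a mean of 100 or more raw counts (horizontal axis) under each processing alternative, split into interactions above 0 (red) and below 0 (blue). The bars run from 87 genes without WTSH sample 19 to 364 without WTEE sample 10, and the genes below 0 are the larger part in every bar.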

How the data were processed

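Poly(A) RNA of the hippocampus was sequenced from 24 mice, 1 library each, and each deposited file lists, per gene symbol, an unnormalized count of read pairs. According to the study's methods and the submitters' processing notes, the authors trimmed reads with Skewer, checked them with FastQC 0.11.3, mapped them to GRCm38 with STAR 2.5 and counted unique alignments with HTSeq 0.6.1p1 without regard to strand, 1 library per mouse and none pooled. Read pairs that could belong to more than 1 gene, on either strand, were set aside as ambiguous and counted for none of them. They made up 4.14% to 6.57% of all pairs in the 21 libraries. Which libraries shared a lane is not given in the sources used here. Read pairs on no single gene were left out and made up 13.1% to 21.3% of all pairs in the 21 libraries.

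Groups came from the sample labels. The members and gene lists were chosen with earlier results of these data known. Counts were normalized with TMM and tested with edgeR 4.0.16 (R 4.3.3) after edgeR's own low-count filter, using 1 quasi-likelihood model of the 4 groups and Benjamini-Hochberg adjustment over all tested genes. A gene was called at an adjusted p under 0.05 and an absolute log2 difference over 0.38. Normalized counts are counts divided by the library's TMM-scaled total and multiplied by the mean of these totals. List levels are mean log2 CPM with a prior count of 2. List counts use an unadjusted p under 0.05, without a test of the list. Mouse numbers are unique, so no samples are paired. The edgeR p-values rest on the spread between mice within groups, estimated over the 4 groups together. The study housed several mice per cage and allocated cages to enrichment. The labels give no cage, so effects of housing and of cage cannot be told apart. PCR copies are included in the counts, as there were no molecular identifiers.

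Named genes were those the study singles out, the 12 smallest interaction p-values in each direction at a mean of 100 or more, and up to 6 members with the smallest p of each list described, with defining members. Not every gene under this rule is reported here. Genes named for a small interaction p were picked from these same values, so groups without overlap among them add no support. The share of all genes with groups that did not overlap is not reported here. Meg3, Gfap, Prl, Fosb, Inhba, Homer1, Creb1 and the 5 genes with a full CREB site were named after their values were seen. Single genes were compared between housing groups with exact two-sided permutation tests. The model was tested on simulated counts of this design over 19927 genes for a log2 interaction of 0.5 and 19898 for 1. Alternatives were the Wald test of DESeq2 1.42.0, DESeq2-style size factors, no filter, at least 10 counts in every library, all 24 libraries, a robust fit, other thresholds, leaving out each library, and, chosen after seeing the data, the choroid plexus level or the share of pairs outside genes as a covariate. Positions came from GENCODE M21 (GRCm38). Figures were drawn with matplotlib 3.10.9.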

Additional observations from a re-analysis of the deposited data

Results flagged for a closer look

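In groups of 4 to 6 libraries, a value far from the rest of its group by Dixon's test was found in 12 of 100 group and measure pairs, where chance gives about 1 in 20. These covered 12 genes and 13 lists in 4 groups, and many of the measures share libraries.

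Of the 12, 5 were values of WTEE sample 10. Its Rps6ka5 was 665.44 normalized counts, below the next value of 1071.1, and its Malat1 was 137730 against 69953. Its level of disease-associated microglia genes was 5.7127 mean log2 CPM against 5.2341, its MAP kinase list level 5.7773 against 5.9036, and its neurotrophin list level 5.1622 against 5.6891. The choroid plexus level of WTSH sample 19 was 5.2206 mean log2 CPM against 1.3283, and the level of nuclear long noncoding RNAs in WTSH sample 2 was 6.6625 against 6.3714. Gm10800 had 6928.5 normalized counts in WTEE sample 21 against 2738.8, 5343.6 in KDSH sample 1 against 932.75, and 199.97 in KDEE sample 12 against 76.906. Gh had 6157.8 in KDSH sample 8 against 306.83, and 37.642 in KDEE sample 12 against 10.254.

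The 3 libraries left out of the comparison held some values above all 21 others when all 24 were normalized together. Kcnq1ot1 had 3988.6 normalized counts in WTSH sample 4 and 3965.8 in WTSH sample 7, against at most 1840.4 in the 21. Gm10800 had 6818.8 in WTSH sample 4 against 6474.5. In KDSH sample 6, Gh had 16535 against 5716.0 and Rtp4 had 226.28 against 202.13.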

How the results depend on the processing

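No paired analysis was possible because the groups share 0 mouse numbers. The number of genes called for the interaction was 0 in edgeR under every alternative run and 20 with DESeq2. The number with an unadjusted interaction p under 0.05, 174, was 352 with all 24 libraries and 101 with the share of pairs outside genes as a covariate, and 87 (without WTSH sample 19) to 364 (without WTEE sample 10) with each library left out. The number for enrichment in WT, 767, was 3061 with all 24 libraries and 321 (without WTSH sample 5) to 1717 (without WTEE sample 21) with each library left out, among them 373 without WTSH sample 23 and 399 without WTEE sample 10. The number for enrichment in MSK1 KD, 1650, was 594 with the choroid plexus level and 657 with the share of pairs outside genes as a covariate, and 945 (without KDEE sample 12) to 3555 (without WTEE sample 10) with each library left out, among them 1053 without KDSH sample 24 and 1094 without KDEE sample 14. The interaction of Kcnq1ot1 turned to −0.22288 with all 24 libraries and that of Rps6ka5 to 0.017569 without WTEE sample 10, with a range from −0.12939 (without WTSH sample 2) over the leave-outs. Gh and Gm10800 passed the adjusted threshold with DESeq2. Other alternatives compared for single genes and list medians, 772 in all, were counted as unchanged because they kept their direction and side of the threshold or moved by less than 1 SD between libraries, and 6 list medians moved by more. Small interactions of other named genes also changed sign, such as Bdnf in 3 leave-outs, Gfap in 4 and Meg3 in 1. A list median could change sign within 1 SD, as that of the neurotrophin list did, from −0.084 to 0.007 without WTEE sample 10. The cause was not tested. The smallest group of 4 libraries limits the precision, and list members under a mean of 100 counts were not described.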
